A study of Mus musculus with 33 samples.

Results

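Shbg encodes sex hormone-binding globulin and was read here by 1 probe of the 33012 gene probes on the array. The gene was chosen by its measured signal in this series, which was high with lipopolysaccharide (LPS), near background without it, and lower with LPS and 100 µg/ml paeonol. Its values on all 33 arrays were in view when it was chosen. RAW264.7, an established mouse macrophage-like line, was treated for 6 h in 11 groups of 3 arrays each, labelled as biological replicates. In 9 groups the cells received LPS at 1 µg/ml together with 1 of the 3 compounds albiflorin, paeoniflorin and paeonol, each given at 1, 10 and 100 µg/ml. A further group received LPS alone, and the last received vehicle (0.1% DMSO) without LPS. The labels give no DMSO content for the groups with LPS, so its part in the differences was not tested. The labels name no genetic change and no time other than 6 h. RAW264.7 is 1 line, so the arrays carry the spread between cultures of that line and not between animals.

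Sex hormone-binding globulin is a secreted protein that carries androgens and oestrogens in blood and limits how much free steroid reaches tissues. In humans and many other mammals the liver secretes it into plasma, and Sertoli cells of the testis make a form of the same gene known as androgen-binding protein. Adult mice and rats are known for making little of it in the liver. LPS is a component of the outer membrane of Gram-negative bacteria that activates macrophages through Toll-like receptor 4. Albiflorin and paeoniflorin are isomeric monoterpene glycosides of peony root, and paeonol is a small phenolic ketone, also named in the series as derived from that root.

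The RefSeq promoter of Shbg is shown because the probe's signal was so much higher in every group with LPS, and the letters near the start show which short motifs it holds. The sequence runs 5′ to 3′ on the gene's strand over the 250 bases before the start of the transcript, chr11:69617906-69618155, minus strand, assembly GRCm38.p6. Capitals mark the only matches among 10 motifs searched on both strands.
Shbg promoter: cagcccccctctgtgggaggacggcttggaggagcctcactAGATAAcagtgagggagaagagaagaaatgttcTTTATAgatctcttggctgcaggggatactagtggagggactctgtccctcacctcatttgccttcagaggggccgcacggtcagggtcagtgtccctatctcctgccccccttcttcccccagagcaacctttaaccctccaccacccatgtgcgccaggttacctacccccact
The first match, AGATAA, is a GATA motif at position -209 from the start, and 9.99% of 32851 promoters of the same length hold it. The second is the TATA box motif TATAAA read on the opposite strand at -176, which 12.4% of promoters hold on either strand. Neither of the NF-kB consensus variants searched is in this window, and 0.0852% and 0.14% of promoters hold them. The AP-1 motif TGANTCA, the CRE TGACGTCA, the ISRE core, the GAS element TTCNNNGAA, the C/EBP motif TTGCNNNAA and the nuclear receptor letters AGGTCA were likewise not found. Between 1.55% and 14% of promoters hold each of these 6. The window had a GC content of 57.2% and 4 CpG pairs, against medians of 52.4% and 6 over all promoters. RefSeq lists 3 transcripts of Shbg, and which of them the probe reads was not analysed here.

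The arrays were read by chemiluminescence as an intensity on a linear scale, with a signal-over-noise score for every spot. A score of at least 3 is taken here as detected. By that limit an array detected between 38.2% and 49.7% of its gene probes. The median raw signal per array lay between 335.9 and 1439.7. Precision was limited by the number of arrays, and log2 differences between groups had a median SE of 0.337. A name was found here for 316 of the gene probes, so most probes stand without one. Of 14 macrophage markers 1 was named here, Cebpb, a transcription factor of myeloid cells. As 1 gene it does not test the cell type, and its 2 probes were detected on all 33 arrays. For LPS alone minus vehicle they differed by 0.83 ± 0.178 (SE, limma adjusted p = 0.00157) and 1.16 ± 0.698 (limma adjusted p = 0.334). Of the markers of other cell types that make Shbg or could share a culture, 0 of 8 hepatocyte genes, 0 of 8 Sertoli cell genes and 0 of 6 fibroblast genes had a name, so their part in the Shbg signal was not tested.

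Shbg was detected on all 30 arrays with LPS and on 0 of the 3 vehicle arrays. On the arrays with LPS the score ran from 3.24, on an array of paeonol at 100 µg/ml, to 31.99, on an array of paeoniflorin at 100 µg/ml. On the vehicle arrays it was -0.16, -0.07 and -0.61. The unnormalized signal was 5634.34, 4430.92 and 5617.47 with LPS alone, against 359.54, 308.95 and 405.24 with vehicle. On the 3 vehicle arrays the deposited signal equals the spot's standard deviation, so those numbers mark the noise and not a level of Shbg RNA. The variation within the spot was low with LPS, with a median coefficient of 0.08 and a highest of 0.31 on an array of paeonol at 100 µg/ml. No array carried a quality warning at this spot other than the mark for low signal on the vehicle arrays.

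**Figure D1:**
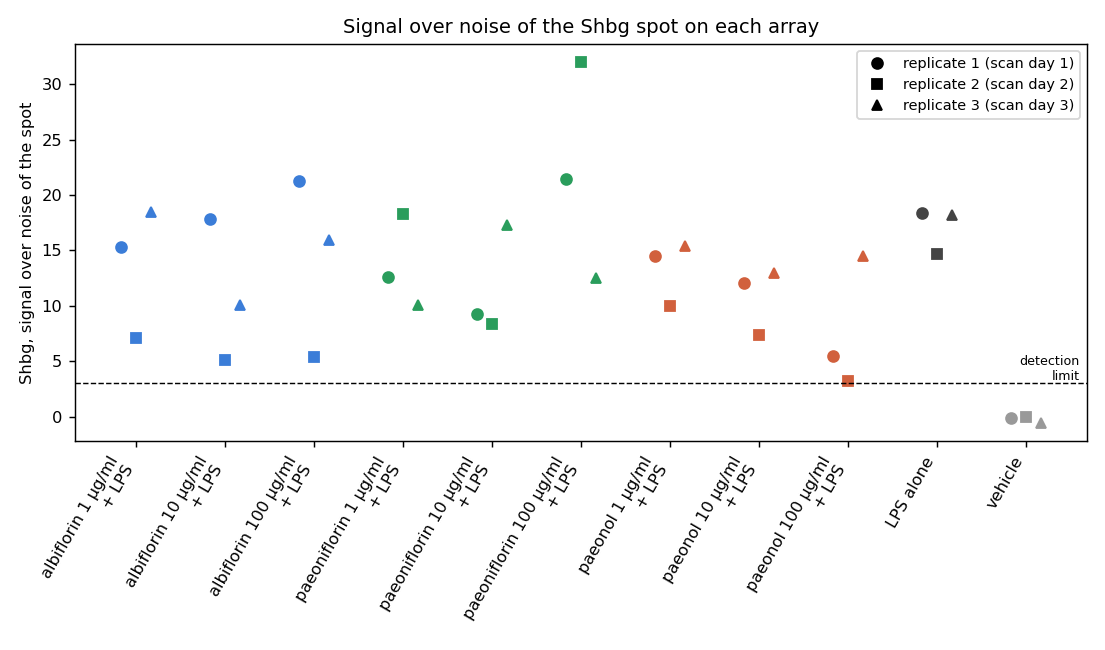
Signal-over-noise score of the Shbg probe on each of the 33 arrays, by group. The line marks the detection limit of 3: all 30 arrays with LPS lie above it, the lowest at 3.24, and the 3 vehicle arrays lie below 0.

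After quantile normalization between arrays, levels are given as log2 intensity in the order of replicates 1, 2 and 3, which are also the order of the 3 scan days. With LPS alone Shbg measured 12.36, 11.55 and 12.74, against 8.43, 8.20 and 8.48 with vehicle. Every LPS array lay above every vehicle array. The LPS mean was 12.22 ± 0.61 and the vehicle mean 8.37 ± 0.148 (SD, n = 3 each), a log2 difference of 3.85 ± 0.311 (SE, 95% interval 3.20 to 4.49). Against the noise value of vehicle, Shbg was 14.4-fold higher with LPS alone (95% interval 9.21 to 22.4). Each such fold sets the brighter group's mean against the higher, on each vehicle array, of the probe's own signal and the lowest detected signal. The fold itself leaves out the replicate error, which the 95% interval from the limma fit carries. A vehicle level above the value used could still score under 3, so the fold is not a lower limit. In bulk RNA, more cells with Shbg RNA and more of it per cell cannot be told apart. This contrast chose the gene and is given without a test. Over all 19438 probes tested, 14.9% were called in it at an adjusted p under 0.05, and 6.59% were called as higher. Within a scan day the LPS array exceeded the vehicle array by 3.93, 3.35 and 4.26.

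With LPS and paeonol at 1 µg/ml Shbg measured 12.07, 11.94 and 12.22, and at 10 µg/ml 12.18, 11.44 and 12.08. Both groups overlapped LPS alone, and 1 array, replicate 2 at 10 µg/ml, lay below the lowest LPS-alone array. At 100 µg/ml the paeonol arrays measured 10.70, 10.10 and 11.20, all below the lowest array of LPS alone and all above the vehicle arrays. The means were 12.08 ± 0.141, 11.90 ± 0.405 and 10.66 ± 0.553 at 1, 10 and 100 µg/ml (SD, n = 3 each). The geometric mean of the normalized signal was 1623 with paeonol at 100 µg/ml, against 4761 with LPS alone.

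The differences of paeonol from LPS alone were -0.14 (95% interval -0.78 to 0.50) at 1 µg/ml and -0.32 (-0.96 to 0.32) at 10 µg/ml. At 100 µg/ml the difference was -1.55 ± 0.311 (SE, interval -2.19 to -0.91), a ratio of 0.341, or 2.93-fold lower with paeonol. The lower level therefore appeared at the highest of the doses, and the step between 10 and 1 µg/ml was -0.18 (-0.82 to 0.47). The slope over the 3 paeonol doses was -0.71 ± 0.155 on the log2 scale per 10-fold dose (SE, interval -1.03 to -0.38). These paeonol values are among those that chose the gene and carry no test. Over all tested probes, 0.144% were called in paeonol 100 µg/ml against LPS alone, and 0.108% were called as lower. With 100 µg/ml paeonol Shbg was still 4.9-fold above the noise value of vehicle, a measured log2 difference of 2.29 (1.65 to 2.93).

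The lower level was seen on each scan day. These are the same arrays that chose the gene, so the days are a description and not separate support. Paeonol at 100 µg/ml differed from LPS alone by -1.66, -1.45 and -1.54 on days 1, 2 and 3, a mean of -1.55 ± 0.105 (SD, n = 3 days). It was the lowest of the 10 groups with LPS on 3 of 3 days, and the next lowest groups measured 11.65, 11.16 and 11.67 on those days. At 1 µg/ml the same-day differences were -0.29, 0.39 and -0.52, and at 10 µg/ml they were -0.18, -0.11 and -0.66. The signs at 1 µg/ml were mixed. Levels moved with the scan day: the means over the 10 groups with LPS were 11.96, 11.45 and 12.03, and day 2 was the lowest in 8 of 10 groups.

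**Figure D2:**
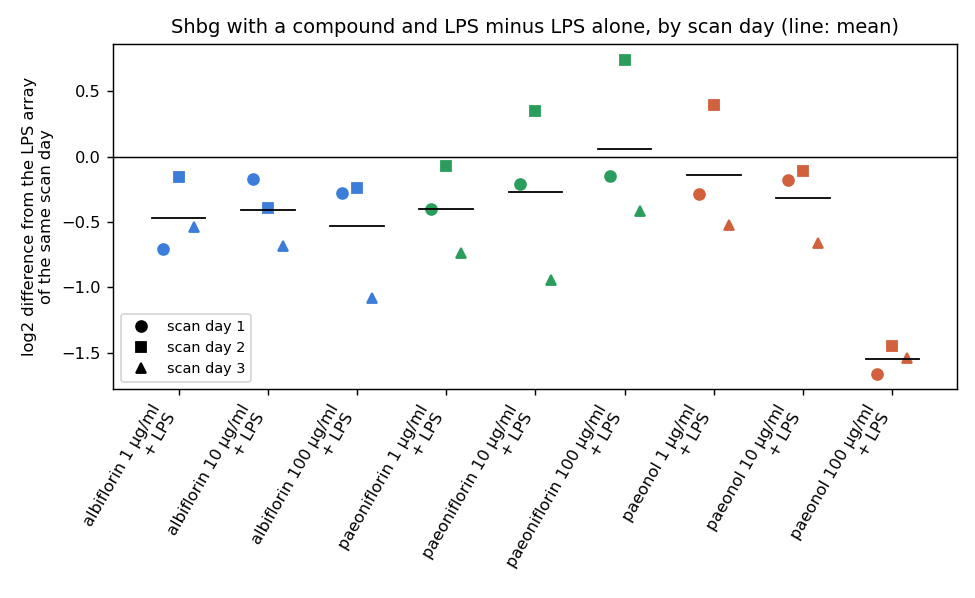
Log2 difference of Shbg between each compound group and the LPS-alone array of the same scan day, by compound and dose, with 1 point per day. Paeonol at 100 µg/ml lies between -1.66 and -1.45 on the 3 days, below every other point.

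The arrays were also grouped into 3 sets of 15, 10 and 8 by which of 88 spots carry a shared defect mark. These marks are a property of the arrays and not of the labels. The mean correlation was 0.148 within sets and -0.023 between sets, a weak separation, and what the sets stand for is unknown. The 3 arrays of paeonol at 100 µg/ml lay in the first set, which held 8 of 9 paeonol arrays and none of LPS alone. The contrast of paeonol at 100 µg/ml with LPS alone therefore has no value within a set. With the set as a block it was -1.62 ± 0.369 (SE). Within the first set, paeonol at 100 µg/ml differed by -1.41 from 1 µg/ml (3 arrays against 3), by -1.47 from 10 µg/ml (3 against 2) and by -1.64 from paeoniflorin at 100 µg/ml (3 against 2). Over all arrays the mean same-day differences were -1.41, -1.24 and -1.61. LPS alone and vehicle shared the third set, where they differed by 4.40 (1 array against 2). The part of the array set in the contrast with LPS alone was not tested beyond these values.

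**Figure D3:**
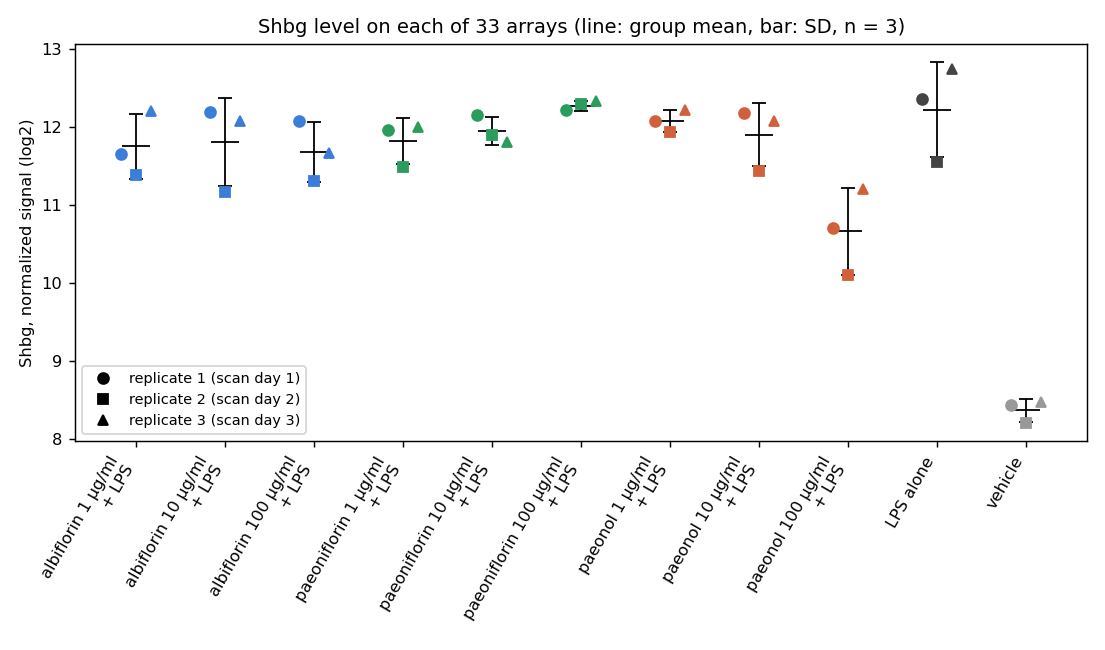
Normalized log2 intensity of the Shbg probe on the 33 arrays, by compound and dose, with group means. The paeonol 100 µg/ml arrays lie at 10.10 to 11.20 and the vehicle arrays at 8.20 to 8.48, where the probe was not detected.

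With LPS and albiflorin at 1 µg/ml Shbg measured 11.65, 11.38 and 12.20, at 10 µg/ml 12.19, 11.16 and 12.07, and at 100 µg/ml 12.08, 11.31 and 11.67. The 3 dose groups overlapped each other, and each overlapped LPS alone. The means were 11.75 ± 0.416, 11.81 ± 0.565 and 11.68 ± 0.384 (SD, n = 3 each). The arrays of replicate 2 at 10 and 100 µg/ml had unnormalized signals of 804.34 and 929.09, the lowest with LPS. Their median raw signals over all probes, 358.5 and 335.9, were also the lowest of all arrays. After normalization Shbg still measured 11.16 and 11.31 on them, the lowest values with albiflorin. The part of array brightness in these levels was not tested. Their scores of 5.13 and 5.42 were still above the detection limit. The slope on dose was -0.03 ± 0.155 per 10-fold dose (SE, interval -0.35 to 0.29) and was not called (limma adjusted p = 1, 0% of all probes called, 640 at an unadjusted p under 0.05). The albiflorin arrays were in view when the gene was chosen, so this p-value is not independent of that choice.

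With LPS and paeoniflorin at 1 µg/ml the normalized signal of Shbg was 3993, 2861 and 4109 on the linear scale, with log2 levels of 11.96 and 11.48 for replicates 1 and 2. At 10 µg/ml the log2 levels were 12.15, 11.89 and 11.81, and at 100 µg/ml 12.21, 12.29 and 12.33. The 100 µg/ml arrays all lay above the other paeoniflorin arrays, within the range of LPS alone. The means were 11.82 ± 0.29, 11.95 ± 0.179 and 12.27 ± 0.0619 (SD, n = 3 each). The slope was 0.23 ± 0.155 per 10-fold dose (SE, interval -0.09 to 0.55) and was not called (limma adjusted p = 1, 0% called, 276 at an unadjusted p under 0.05). With the scan day as a block its interval was 0.01 to 0.45, and the limma adjusted p was again 1. The paeoniflorin arrays were also in view at the choice of the gene, so these p-values are not independent of it.

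Over its 3 doses, Shbg with albiflorin and LPS was 10.4-fold above the noise value of vehicle, and with paeoniflorin and LPS 12.5-fold. The measured log2 differences, 3.37 for albiflorin and 3.64 for paeoniflorin, are set against a vehicle signal at the noise. All 18 glycoside arrays, at 11.16 to 12.33, lay above every vehicle array. A high signal with LPS was part of the choice of the gene and all 18 arrays carry LPS, so these values are a description without a test. Among all tested probes, 22.9% were called with albiflorin and 19.1% with paeoniflorin, and 8.62% and 7.99% were called as higher.

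Against LPS alone, albiflorin over its doses differed by -0.47 ± 0.254 (SE, interval -0.99 to 0.05), a ratio of 0.721. With the scan day as a block the interval was -0.83 to -0.11 and left out 0. The difference was -0.81 without LPS replicate 2 and -0.21 without LPS replicate 3. Paeoniflorin differed by -0.20 ± 0.254 (interval -0.73 to 0.32), a ratio of 0.868, with values of -0.54 and 0.06 without the same LPS arrays. The LPS-alone values took part in choosing the gene, so these differences carry no test, and among all probes limma called 0% with albiflorin, 236 at an unadjusted p under 0.05, and 0.00514% with paeoniflorin. At 1, 10 and 100 µg/ml the differences were -0.47, -0.41 and -0.53 for albiflorin, and -0.40, -0.27 and 0.06 for paeoniflorin. The 9 same-day differences of albiflorin, which share 3 LPS arrays, lay between -1.08 and -0.16.

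The isomers were compared at each dose. The gene was not chosen for a difference between them, but their arrays were among those in view. Those at 100 µg/ml also stand in the contrasts with paeonol that chose the gene. The p-values below are therefore not independent of that choice. At 1 µg/ml albiflorin minus paeoniflorin was -0.07 ± 0.311 (SE, interval -0.71 to 0.57, limma adjusted p = 1). At 10 µg/ml it was -0.14 (interval -0.78 to 0.50, limma adjusted p = 0.909). At 100 µg/ml it was -0.59 (interval -1.23 to 0.05, limma adjusted p = 1), a ratio of 0.665 with an interval of 0.426 to 1.04. In each of these 3 comparisons 0% of all probes were called by limma, and, from the lowest dose to the highest, 286, 1580 and 618 probes had an unadjusted p under 0.05. The albiflorin arrays at 100 µg/ml all lay below the paeoniflorin arrays, by 0.13, 0.98 and 0.66 within a scan day, and the unadjusted limma p was 0.0705. With the scan day as a block the interval at 100 µg/ml was -1.03 to -0.15, which leaves out 0, and the limma adjusted p was 0.673. No difference between the isomers was called at any dose. The unblocked intervals leave room for one of up to 0.71, 0.78 and 1.23 on the log2 scale with albiflorin the lower.

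Paeonol was set against the glycosides in the same way. Its values at 1 and 10 µg/ml were also in view when the gene was chosen. The p-values here are therefore not independent of that choice. At 1 µg/ml it exceeded albiflorin by 0.33 ± 0.311 (SE, interval -0.31 to 0.97, limma adjusted p = 0.725, 0.0103% called) and paeoniflorin by 0.26 (-0.38 to 0.90, limma adjusted p = 0.992, 0% called). At 10 µg/ml its differences were 0.09 from albiflorin (-0.55 to 0.73, limma adjusted p = 1) and -0.05 from paeoniflorin (-0.69 to 0.59, limma adjusted p = 0.977), with 0% called in both. None of these 4 differences was called, and in the 3 comparisons with 0% called, 972, 633 and 1442 probes had an unadjusted p under 0.05. At 100 µg/ml, where the gene was chosen, paeonol minus albiflorin was -1.02 (-1.66 to -0.38), a ratio of 0.493. Paeonol minus paeoniflorin at that dose was -1.61 (-2.25 to -0.97), a ratio of 0.328. Within a scan day these were -1.38, -1.21 and -0.46 against albiflorin, and -1.51, -2.19 and -1.13 against paeoniflorin, with no sign change.

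**Figure D4:**
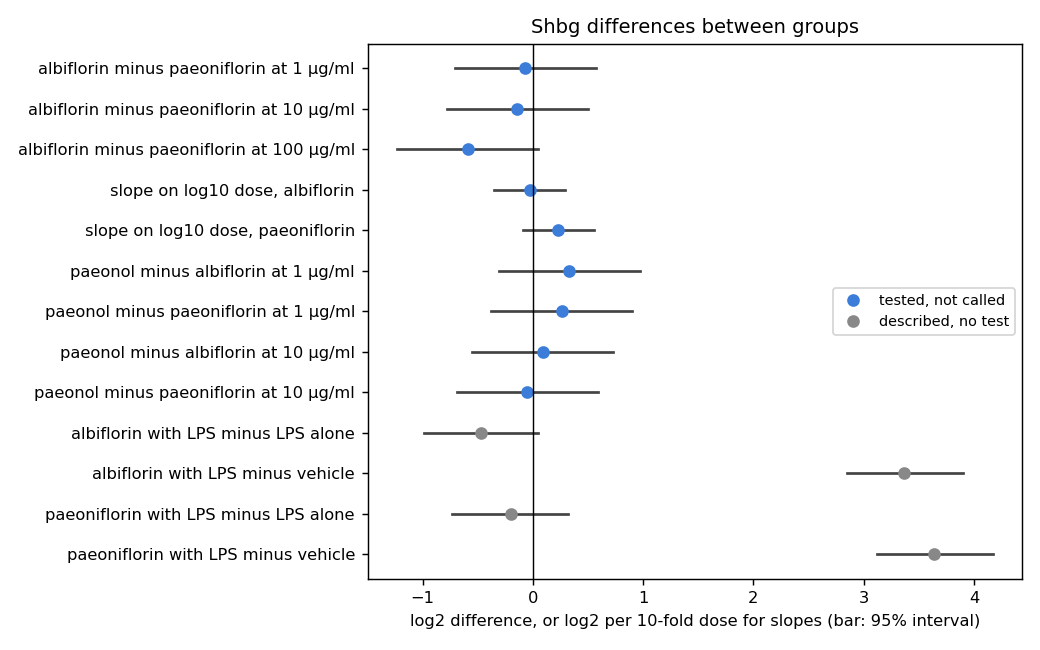
Log2 differences of Shbg between groups, and slopes per 10-fold dose, with 95% intervals from the limma fit over 33 arrays. Of the 13 comparisons drawn, 9 were tested (blue) and 4 are described only (grey). The intervals of the 2 differences from vehicle, at 3.37 and 3.64, leave out 0, and the other 11, drawn without a scan day block, include it.

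From high to low the group means ran paeoniflorin 100 µg/ml, LPS alone, paeonol 1, paeoniflorin 10, paeonol 10, paeoniflorin 1, albiflorin 10, albiflorin 1, albiflorin 100, paeonol 100 and vehicle. Of the 10 steps between neighbours in this order, 8 were smaller than the pooled SD of the neighbours, whose ranges overlapped. The exceptions were albiflorin 100 over paeonol 100 µg/ml, a gap of 1.02 or 2.14 pooled SD, and paeonol 100 µg/ml over vehicle. In the latter step the vehicle value is noise, and paeonol 100 µg/ml was 4.9-fold above it. Of the 27 arrays with LPS outside the paeonol 100 µg/ml group, 26 lay above its highest array. The exception was albiflorin 10 µg/ml replicate 2, at 11.16 after normalization. Its median raw signal was 358.5, and the part of this in its Shbg level was not tested. The array with the lowest median, albiflorin 100 µg/ml replicate 2 at 335.9, measured 11.31.

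The sex steroid genes around Shbg in function, such as receptors and steroid-converting enzymes, could be read through 1 of 43 listed genes. Hsd17b10, a mitochondrial dehydrogenase that can oxidise steroids, was detected on all 33 arrays. Its log2 difference was -0.37 ± 0.144 for LPS alone minus vehicle (SE, limma adjusted p = 0.0903) and 0.13 ± 0.144 for paeonol 100 µg/ml minus LPS alone. It was called in neither comparison by limma.

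Of 30 listed genes that neighbour Shbg on chromosome 11, 8 were named here, by 9 probes, and 6 of these probes passed the detection filter. In LPS against vehicle limma called 0 of the 6 higher and 0 lower, with 1 at an unadjusted p under 0.05. Over all 19438 tested probes 14.9% were called, 6.59% as higher, and 4866 had an unadjusted p under 0.05. The median log2 difference of the 6 was -0.17, against -0.05 over all tested probes. In paeonol at 100 µg/ml against LPS alone limma called 0 of 6, with 0 at an unadjusted p under 0.05 and a median of -0.10, against 0.03 over all probes. Over all probes 0.144% were called and 1479 had an unadjusted p under 0.05, so a count of 0 in 6 probes does not set the neighbours apart. Tnfsf13, which encodes the B cell cytokine APRIL, lies 9 protein-coding genes from Shbg in RefSeq's order and differed by -0.50 ± 0.215 with LPS (SE, limma adjusted p = 0.139). Senp3, a SUMO protease, differed by -0.29 ± 0.193, and Mpdu1, which acts in the use of dolichol-linked mannose, by -0.04 ± 0.325. Fgf11, a fibroblast growth factor homologue, differed by 0.03 ± 0.272. The nearest of those named, Fxr2 and Sox15, differed by 0.32 ± 0.619 and -0.43 ± 0.45 and were detected on only 8 and 4 arrays. The genes next to Shbg, Atp1b2 and Sat2, were not named here, and Slc35g3 and the 2 probes of Tnk1 did not pass the filter.

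**Figure D5:**
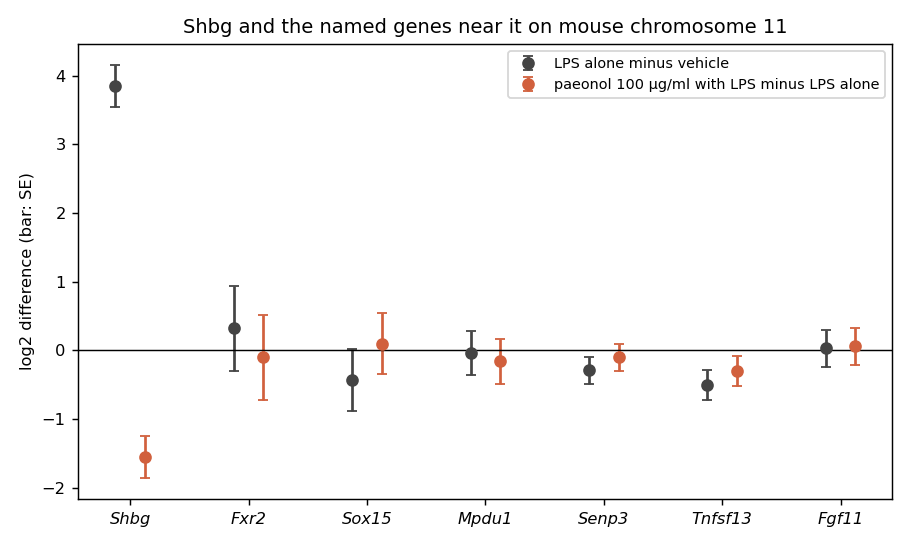
Log2 differences, with SE, of Shbg and of the named neighbouring genes on chromosome 11 for LPS alone minus vehicle and for paeonol 100 µg/ml with LPS minus LPS alone. Shbg lies at 3.85 and -1.55, and the 6 neighbours lie between -0.50 and 0.32 in both comparisons.

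The named genes whose level moved most like Shbg over the 30 arrays with LPS were Ghdc (Pearson's r = 0.57, over 29 arrays), Tmem251 (0.49), Smcr8 (0.48), the ubiquitin ligase Ube3a (0.48) and the proteasome activator Psme3 (0.47). The lowest were Lgals1 (-0.56), Fam83g (-0.49) and Gga1 (-0.46, over 29 arrays). Over the 10 group means with LPS, Ghdc kept an r of 0.81 and Smcr8 0.57, while Tmem251 had 0.23. Lgals1, a galectin, had -0.37 over these means. Among the 182 other named probes the median r was -0.02, and 1 probe, or 0.549%, reached 0.5. Over all 19437 other probes the median was 0.01, and 3.79% reached 0.5. The unnamed probes 926875 and 715006 had the highest values, 0.85 and 0.84. They parted in LPS against vehicle, with log2 differences of 2.03 ± 0.39 (SE) for 926875 and -0.63 for 715006. These correlations describe arrays that share scan days and array sets, and the low paeonol 100 µg/ml arrays are among the 30.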

How the data were processed

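RNA of RAW264.7 cells was labelled with digoxigenin, per the labels' protocols. The deposited scanner tables hold 1 intensity per probe, not normalized between arrays per the file headers and values, and give every spot a quality flag and a score, its signal over noise. The deposited log2 table holds the authors' processed values. It equals the log2 scanner signal for vehicle replicate 1 within 2.24e-06, its column medians run from 9.89 to 10.11, and the authors' normalization is unknown. It served as an alternative. The scanner software is not given in the sources used here. Header codes matched the labels on 33 of 33 arrays.

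The 303 control spots were left out and spots with a flag above 5000 were set missing. Signals were quantile normalized, given a floor of 166 (their 5th percentile) and turned into log2. Testing needed a score of 3 or more on at least 3 arrays, which 19438 probes had, 1785 of them with a missing value. Group means of the 11 groups were fitted to the 33 arrays together with limma 3.58.1 (lmFit and eBayes in R 4.3.3, 2-sided). The p-values were adjusted by Benjamini-Hochberg over all tested probes within a comparison, with calls at an adjusted p under 0.05. The series calls the replicates biological, and how the cultures were kept apart is not given in the sources used here.

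The gene, the lists and the tests were chosen with earlier results of these data known. Contrasts of LPS alone with vehicle, of paeonol with LPS alone, of paeonol with the glycosides at 100 µg/ml and the paeonol slope are therefore given without a p. So are the contrasts of each glycoside with LPS alone and with vehicle, which were planned as tests. Genes were named by a rule: Shbg, the members of the 2 lists that have a name, the 5 named probes most like Shbg, the 3 least like it and the 2 unnamed probes most like it. Names came from the RefSeq gene table, assembly GRCm38.p6, which held 311 of 517 RefSeq accessions and 5 GenBank accessions. None of 27930 probes with a Celera identifier was named. Promoter letters came from the RefSeq table of the same assembly.

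Per the file headers each of the 3 replicate numbers was scanned on a day of its own, so the number pairs arrays. Deviations from group means correlated with a median of 0.192 within a number and -0.11 between numbers. Alternatives were another scaling, the authors' values, other filters and floors, the scan day or the array set as a block, and leaving out each array.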

Additional observations from a re-analysis of the deposited data

How the results depend on the processing

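The 9 tested results and the 4 differences of the glycosides from LPS alone and vehicle were recomputed under the alternatives, which gave 212 values: median scaling, the authors' values, no detection filter, no spot set missing by flag, a floor at the 1st percentile, only the groups compared, the replicate number as a block, the array set as a block and leaving out each array. Of these, 201 kept the direction and the side of the threshold and 11 turned sign. These counts include the 4 differences from LPS alone and vehicle, which carry no test. Albiflorin kept 20 of 20 values against LPS alone and 20 against vehicle, and paeoniflorin 19 and 20. The total of 201 is therefore not a count of tests that held. A high signal with LPS was part of the gene's choice, so the 20 of 20 values kept in each vehicle difference do not measure robustness. The array set block was chosen after seeing the data. None of the 9 tested results was called to begin with, so none could lose a call, and none gained one. That constancy does not measure robustness. All 11 sign turns came from leaving out 1 array, in 6 results. Of these, paeoniflorin minus LPS alone carries no test and the others were not called. Albiflorin minus paeoniflorin then ran from -0.30 to 0.11 at 1 µg/ml and from -0.34 to 0.18 at 10 µg/ml, and the albiflorin slope from -0.13 to 0.08. Paeonol at 10 µg/ml minus albiflorin ran from -0.23 to 0.32 and minus paeoniflorin from -0.19 to 0.18. Paeoniflorin minus LPS alone ran from -0.54 without LPS replicate 2 to 0.06 without LPS replicate 3. The cause was not tested. Albiflorin minus vehicle ran from 3.29 to 3.60 and paeoniflorin minus vehicle from 3.56 to 3.94. The replicate block changed no call, though 3 intervals that include 0 without it then left out 0. With it, albiflorin minus paeoniflorin at 100 µg/ml was -0.59 ± 0.212 (SE, limma adjusted p = 0.673). Among values without a test, paeonol 100 µg/ml minus LPS alone ran from -1.89 without LPS replicate 2 to -1.27 without paeonol replicate 2, and LPS alone minus vehicle from 3.58 without LPS replicate 3 to 4.18 without LPS replicate 2. A detection limit of 2 gave the same detection counts for Shbg. A planned block on array lots was not run, because the headers used here give none apart from the scan day. The vehicle level of Shbg is noise, so the folds over vehicle are not lower limits.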
